A study of Homo sapiens with 6 samples.

Results

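This report describes which RNAs were found with Argonaute-2 (AGO2) in MDA-MB-231 cells that carried a scrambled control oligonucleotide and no miR-99b-5p mimic. MDA-MB-231 is an established triple-negative breast cancer line of mesenchymal character. The members were the 2 control libraries of the AGO2-RIP-seq experiment, out of 6 libraries in all, and the genes with at least 200 read pairs summed over both, which left 8245 of 60708 genes. One library held the RNA pulled down with an AGO2 antibody (control AGO2-IP, n = 1) and the other held the RNA that the beads left behind (control flow-through, n = 1). All cells were transfected at 25 nM and harvested after 18 hours. The other 4 libraries, an AGO2-IP and a flow-through from each of 2 biological replicates transfected with the miR-99b-5p mimic, are used below only to place the control values. The fraction of each control library was read from its sample title, since the study's supplement lists both as control replicates without naming a fraction. An IgG pull-down was part of the protocol, but no IgG library was analysed here, so RNA held by AGO2 and RNA held by the beads or the antibody cannot be told apart.

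Argonaute proteins hold a microRNA and use its seed, bases 2 to 8, to find complementary sites, mostly in the 3′ untranslated regions (UTRs) of mRNAs. TNRC6 proteins then bridge Argonaute to the deadenylases that shorten the poly(A) tail. Precursor hairpins are cut to mature microRNAs by DICER1. Sequencing of RNA that co-precipitates with AGO2 therefore reads the mRNAs that are held at that moment, and the flow-through reads the rest of the lysate, including the structural RNAs of ribosomes, spliceosomes and mitochondria. Mature microRNAs themselves were not measured in these libraries.

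The control libraries were alike in gene counts but not in what the counts were made of. The AGO2-IP held 8076375 read pairs on genes and the flow-through held 7772149. Both came from far more sequenced pairs, because 95.03% and 92.3% of the pairs were unmapped, mapped to several places or lay on no single gene. Of the uniquely mapped pairs, 40.9% of the AGO2-IP (95% exact binomial interval 40.88 to 40.93%) and 15.1% of the flow-through (15.12 to 15.16%) lay outside annotated exons. In the mimic libraries this share was 3.39 to 5.22%. Its part in the ratios below was not tested. The 10 genes that mark the line, among them VIM, CD44 and AXL, stood at 135 to 2827 CPM (read pairs of a gene scaled to the library size) with AGO2 and at 195 to 2415 CPM in the flow-through. The 5 genes of other cell types were at most 1.92 and 2.73 CPM. Of the 8 genes that should be low in the line, ERBB2 was the highest, at 178 and 115 CPM.

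Each gene is given below as a log2 ratio, the CPM in the control AGO2-IP over the CPM in the control flow-through. The mitochondrially encoded genes were left out of the library size, for a reason that the RNA classes make plain. With 1 library a side there is no test and no p-value. Among all genes past the filter, 19.3% were at or above 1 and 15.6% at or below -1, and the counts of each class and family below are to be read against these shares. The 95% intervals are exact binomial intervals for counting error only. Counts are shares of a library, so more of 1 RNA and less of the others cannot be told apart, nor in bulk RNA can fewer cells and less RNA per cell.

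The control flow-through was dominated by structural RNA that was scarce in the AGO2-IP. Genes of the mitochondrial genome held 43.4% of the counts in the flow-through and 3.48% in the AGO2-IP. Nearly all of it was mitochondrial ribosomal RNA, at 41.6% and 2.72%. Protein-coding mRNA from the nucleus made up 50.5% of the flow-through and 94.6% of the AGO2-IP. Once the mitochondrial genes were set aside these shares were 89.2% and 98.0%. The choice of library size moves every ratio by the same amount: with the mitochondrial genes included, each log2 ratio is higher by 0.77, a factor of 1.71.

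**Figure D1:**
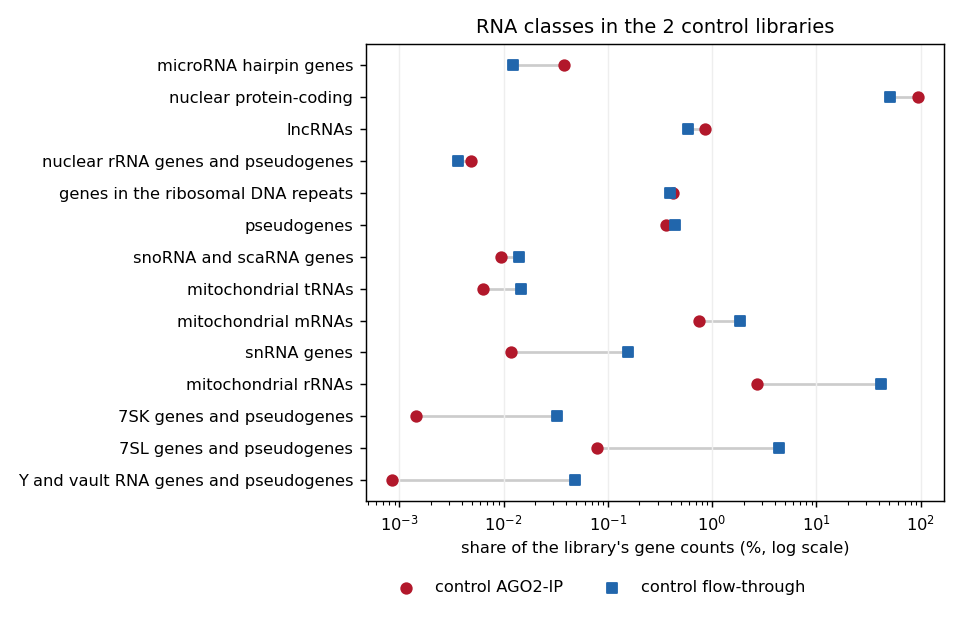
Share of each library's gene counts by RNA class (percent, log axis) in the control AGO2-IP (circles) and the control flow-through (squares), 1 library each. Protein-coding mRNA stands at 94.6% against 50.5%, while 7SL, Y RNA, 7SK, snRNA and mitochondrial rRNA genes lie far to the left in the AGO2-IP.

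The 7SL, Y, 7SK and spliceosomal RNAs were lower in the AGO2-IP by a factor of 22.4 to 95.7. The 7SL genes, which encode the RNA of the signal recognition particle, made up 4.34% of the flow-through and 0.0784% of the AGO2-IP. This was 94.5-fold lower in the AGO2-IP, or 55.4-fold with the mitochondrial genes in the library size. RN7SL1 alone had 801 CPM against 76040 in the flow-through (log2 ratio -6.57). The Y and vault RNAs, short RNAs of ribonucleoprotein particles, were 95.7-fold lower. RNY1 had the lowest ratio of all genes past the filter, at 4.87 against 753 CPM (log2 ratio -7.27). The snRNAs of the spliceosome were 22.4-fold lower in sum and 5 of their 7 genes past the filter had a ratio of at most -1. RNU4-2 stood at 14.1 and 1185 CPM (-6.39). The variant U1 gene RNVU1-15 lay on the other side, at 1.92. The 7SK genes, whose RNA holds the elongation factor P-TEFb, were 38.4-fold lower, with RN7SKP80, an annotated pseudogene copy, at 7.06 and 289 CPM (-5.36). STAR drops pairs that map to several copies, so the split between near-identical 7SL, 7SK and snRNA copies is uncertain.

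In the mitochondrial genome, the ribosomal RNAs lay further from the AGO2-IP than the mRNAs did. MT-RNR2, the large ribosomal RNA, had 97080 read pairs against 1954083 in the flow-through (log2 ratio -5.16). MT-RNR1, the small one, had 122459 and 1277462 (-4.21). All 13 mitochondrial mRNAs were below 0 on both library sizes and 12 were at most -1 when mitochondrial genes were left out, with a median of -2.31. MT-CO2, a cytochrome c oxidase subunit, was the lowest of them at -3.87 and MT-CO3 followed at -2.89. MT-CO1, a subunit of the same enzyme, was at -1.71. MT-ND6, the one mRNA encoded on the light strand, was the highest, with 3090 and 3052 read pairs and a log2 ratio of -0.81. In sum, mitochondrial rRNA was 26.1-fold and mitochondrial mRNA 4.16-fold lower in the AGO2-IP, or 15.3-fold and 2.44-fold with these genes in the library size.

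The genes annotated within the ribosomal DNA repeats of chromosome 21 ran in both directions. This class was set apart after its values were seen. Of its 28 genes, 17 had at least 20 counts over both libraries and 12 of these were higher in the AGO2-IP. All 4 genes annotated on the minus strand were lower in the AGO2-IP, and 12 of the 13 on the plus strand were higher. The counting ignored strand, so the strand of the read pairs is not known. The 3 lowest of the minus-strand genes have transcripts of the same length (923 bases) and GC content (54.8%), so they are not separate observations. RNA5-8SN1, a copy of the 5.8S ribosomal RNA, had 9748 read pairs against 20 in the flow-through (log2 ratio 8.10). MIR6724-4, a hairpin gene in the same repeat, had 417 and 1, and its interval ran from 5.39 to 13.2. ENSG00000280614 on the minus strand had 247 and 6364 (-5.51). The copies of the repeat are near-identical, so single copies cannot be trusted, and the direction of their sum depends on the library size: the class held 0.436% of the nuclear counts of the AGO2-IP and 0.694% of those of the flow-through (log2 ratio -0.67), but 0.421% and 0.393% of all gene counts.

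Long non-coding RNAs made up 0.848% of the AGO2-IP and 0.593% of the flow-through. Their summed log2 ratio was -0.25, and 0.52 with the mitochondrial genes in the library size, so the direction depends on that choice. Of 63 lncRNAs past the filter, 12 had a ratio of at least 1 and 15 of at most -1, with a median of -0.20, so the upper share was near the 19.3% of all genes. NORAD, a cytoplasmic RNA that binds Pumilio proteins, had 2488 CPM against 816 in the flow-through (1.61). MALAT1, which is retained in nuclear speckles, stood at 263 and 1079 (-2.03), with the caution that an antisense gene overlaps it and the counting ignored strand. NEAT1, the paraspeckle RNA, was at 0.51. The snoRNA host genes had 0 of 10 at or above 1 and 5 at or below -1, with SNHG29 the lowest at -2.86. The lowest lncRNA was MIR100HG, the host gene of a microRNA cluster that includes a relative of miR-99b, at 6.16 and 55.3 CPM (-3.17). LINC00205 (2.17) and GARS1-DT (2.02) were among the highest.

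Pseudogenes ran both ways, with 8 of 33 at or above 1 and 11 at or below -1. The nuclear copies of mitochondrial genes MTATP6P1 (-3.13) and MTCO1P12 (-1.86) were among the 11, though neither was the lowest. AFG3L1P, a relative of the genes for a mitochondrial inner membrane protease, was 5.15-fold higher in the AGO2-IP. MicroRNA hairpin genes held 0.0376% of the AGO2-IP and 0.0124% of the flow-through, a summed log2 ratio of 0.83. Which RNAs these pairs came from was not tested. The snoRNA and scaRNA genes were 2.53-fold lower, with SNORA73B at -1.73.

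Across all genes past the filter the ratio was broad and centred close to 0. The median was 0.13, the quartiles were -0.60 and 0.81, and the SD was 1.13. At a log2 ratio of at least 1, that is 2-fold, 1594 genes (19.3% of all tested) were higher in the AGO2-IP, and 1290 (15.6%) were at most -1. With the mitochondrial genes in the library size the counts were 3825 (46.4%) and 420 (5.09%), and the median was 0.90. The share of the past-threshold genes that were higher in the AGO2-IP was thus 55.3% on the one scale and 90.1% on the other. The order of the genes is the same on both. The counting interval lay wholly at or above 1 for 1074 genes and at or below -1 for 936, with a median interval width of 0.48.

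**Figure D2:**
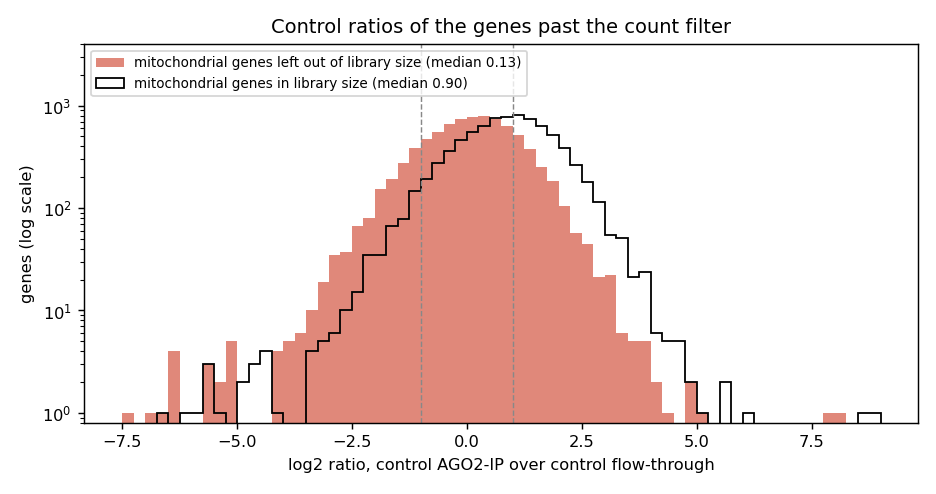
Number of genes (log axis) by log2 ratio of the control AGO2-IP over the control flow-through, with the mitochondrial genes left out of the library size (filled) and included (outline). The outline is the filled shape moved right by 0.77, which takes the median from 0.13 to 0.90; dashed lines mark -1 and 1.

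How far such a ratio moves between repeats can be read only from the mimic libraries. The 2 mimic AGO2-IP replicates differed from each other with an SD of 0.69 on the log2 scale, and 11.6% of genes were at least 2-fold apart. The 2 mimic flow-through replicates differed with an SD of 1.32, and 46.9% were at least 2-fold apart. The control ratio, centred on its median, had an SD of 1.13, with 34.4% of genes at least 2-fold from it. A 2-fold ratio of a single gene is thus of a size that repeats of a fraction also gave, and the text below turns on groups and on the largest ratios.

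The genes furthest towards the AGO2-IP included regulators of signalling and of transcription. NAPB, a vesicle fusion factor, led the mRNAs with 156 CPM against 7.73 in the flow-through (log2 ratio 4.33, interval 3.84 to 4.87). SOCS1, the inhibitor of JAK-STAT signalling, stood at 193 and 12.5 (3.95). MYLIP, the ubiquitin ligase that degrades the LDL receptor, stood at 239 and 16.1 (3.89). PTX3, a secreted pentraxin induced in inflammation, stood at 256 and 23.2 (3.47). MRFAP1 was by far the best counted of the 12, with 3034 and 267 CPM (3.51, interval 3.42 to 3.59). The zinc finger genes ZNF92 (4.14) and ZNF680 (3.82), the transcriptional repressor HIC2 (3.56), C1orf216 (3.55), the adaptor subunit gene AP4B1 (3.43), TXNDC5 (3.90) and the unnamed protein-coding gene ENSG00000170846 (3.82) completed the list. For TXNDC5, 61.1% of the exonic bases also belong to exons of other genes, so its counts are uncertain.

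The 12 genes furthest towards the flow-through held 6 of the ribosomal protein family and its paralogs. OST4, a very small subunit of the oligosaccharyltransferase, was the lowest at 5.003 against 84.8 CPM (-4.08, interval -4.60 to -3.61). TPT1, the translationally controlled tumour protein, stood at 38.4 and 607 (-3.98). TMSB4X, the actin-binding thymosin beta-4, stood at 174 and 2661 (-3.93). Of the other 9, 6 encode ribosomal proteins or a paralog (RPL12, RPL22L1, RPS26, RPL32, RPL21 and RPS21), 2 are TCEAL genes of the X chromosome (TCEAL4 and TCEAL9) and 1 was MT-CO2.

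The mRNAs of cytosolic ribosomal proteins stood together on the flow-through side. Of 89 in the table, 80 passed the filter, 70 of these (87.5%, beside 15.6% of all genes) were at or below -1, and 1 was at or above 1. Their median was -1.90, and -1.13 with the mitochondrial genes in the library size. In sum they were 1.66% of the nuclear counts of the AGO2-IP and 4.68% of those of the flow-through. RPL12 was the lowest, at 52.6 and 877 CPM (-4.06). RPL3 was the highest, at 1859 and 831 CPM (1.16), and 3 of the 80 were above 0. The large subunit (48 genes, median -1.92) and the small subunit (31 genes, -1.88) were alike. Ribosomal protein genes have many processed copies in the genome, and none of the 1599 annotated copies passed the filter, so pairs lost to them lower both libraries by an amount that was not measured.

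Ribosomal protein mRNAs also stood lower than the other mRNAs with short coding sequences, which were not matched to them in length. Of mRNAs with a coding sequence of at most 792.6 bases, the 72 ribosomal protein mRNAs had a median of -1.92 with 88.9% at or below -1, and the 1609 others had a median of -0.50 with 34.6%. Within the family the ratio and the coding length went together, with a Spearman's rho of 0.42 over 80 genes that share both libraries.

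Other small, abundant proteins lay on the same side. Of 15 S100, thymosin, ferritin, galectin and metallothionein genes, 12 were at or below -1 and 0 at or above 1, with a median of -1.76. S100A6, a calcium-binding protein, stood at 204 and 1526 CPM (-2.90). FTH1, the ferritin heavy chain, was at -2.33, with 63% of its exonic bases shared with other annotated exons. The 3 above -1 were S100A11 (0.99) and the metallothioneins MT1E (0.80) and MT2A (-0.49, or 0.29 with the mitochondrial genes in the library size). The replication-dependent histone genes, whose mRNAs end in a stem-loop and carry no poly(A) tail, had 24 of 34 at or below -1, with a median of -1.46. The histone classes were not alike: H2A (7 of 8), H2B (11 of 12) and H3 (5 of 6) were nearly all at or below -1, while the 6 H4 genes had 0 there and a median of 0.13. H2BC11 stood at 48.2 and 358 CPM (-2.89) and H4C8 at 637 and 218 (1.54). Of the variant histones, which do carry a poly(A) tail, H3-3B (1.18) and H3-3A (-1.38) encode the same protein and lay on opposite sides.

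Nuclear-encoded parts of mitochondria lay mostly below the median gene, with single subunits far above it. Of 65 respiratory chain subunits, 28 were at or below -1 and 9 at or above 1, with a median of -0.86. Complex IV stood lowest, with 8 of 10 at or below -1 and a median of -2.06. NDUFB11 of complex I was at 10.1 and 103 CPM (-3.35) and COX6C of complex IV at 5.39 and 54.6 (-3.34). The ATP synthase had 8 of 16 at or below -1, with its catalytic head on both sides. ATP5F1A stood at 1760 and 266 CPM (2.73) and ATP5F1B was at 2.51, while ATP5F1C (-1.16), ATP5F1D (-1.64) and ATP5F1E (-3.19) lay below. In complex II, the flavoprotein SDHA was at 1.99 and the iron-sulfur subunit SDHB at -1.36. Mitochondrial ribosomal proteins had 22 of 55 at or below -1, with a median of -0.76 that became 0.01 with the mitochondrial genes in the library size.

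Translation factors and spliceosomal proteins lay on both sides, also within 1 complex. Of 49 initiation and elongation factors, 16 were at or below -1 and 9 at or above 1, and the median of -0.39 became 0.38 with the mitochondrial genes in the library size. Of these 16, 8 were subunits of eIF3, the scaffold of the initiation complex, of which 12 passed the filter, and the rest included EIF5B (-1.79), EIF2S2 (-1.34) and the cap-binding EIF4E (-1.28). EIF3I stood at 48.5 and 279 CPM (-2.52), whereas EIF3B stood at 1759 and 288 (2.61). The eIF4 group, named for the factors that bind the cap and unwind the 5′ UTR, had a median of 0.86. In it EIF4A2 was at 2.24 and EIF4G1 at 1.10. The median is the value of EIF4A3, an RNA helicase that shares the name but is not a cap-binding initiation factor. EEF1A1, the major elongation factor, was at 0.16. Of 47 snRNP proteins, 19 were at or below -1 and 8 at or above 1, with a median of -0.71 that became 0.07 on the other library size. SF3B5 was the lowest at -3.08 and LSM14B the highest at 2.06. LSM14B is also on the list of deadenylation and mRNA decay genes and is no part of the spliceosome, so its place in this family is doubtful. SF3B1, which sits in the same splicing complex as SF3B5, was at 1.46.

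**Figure D3:**
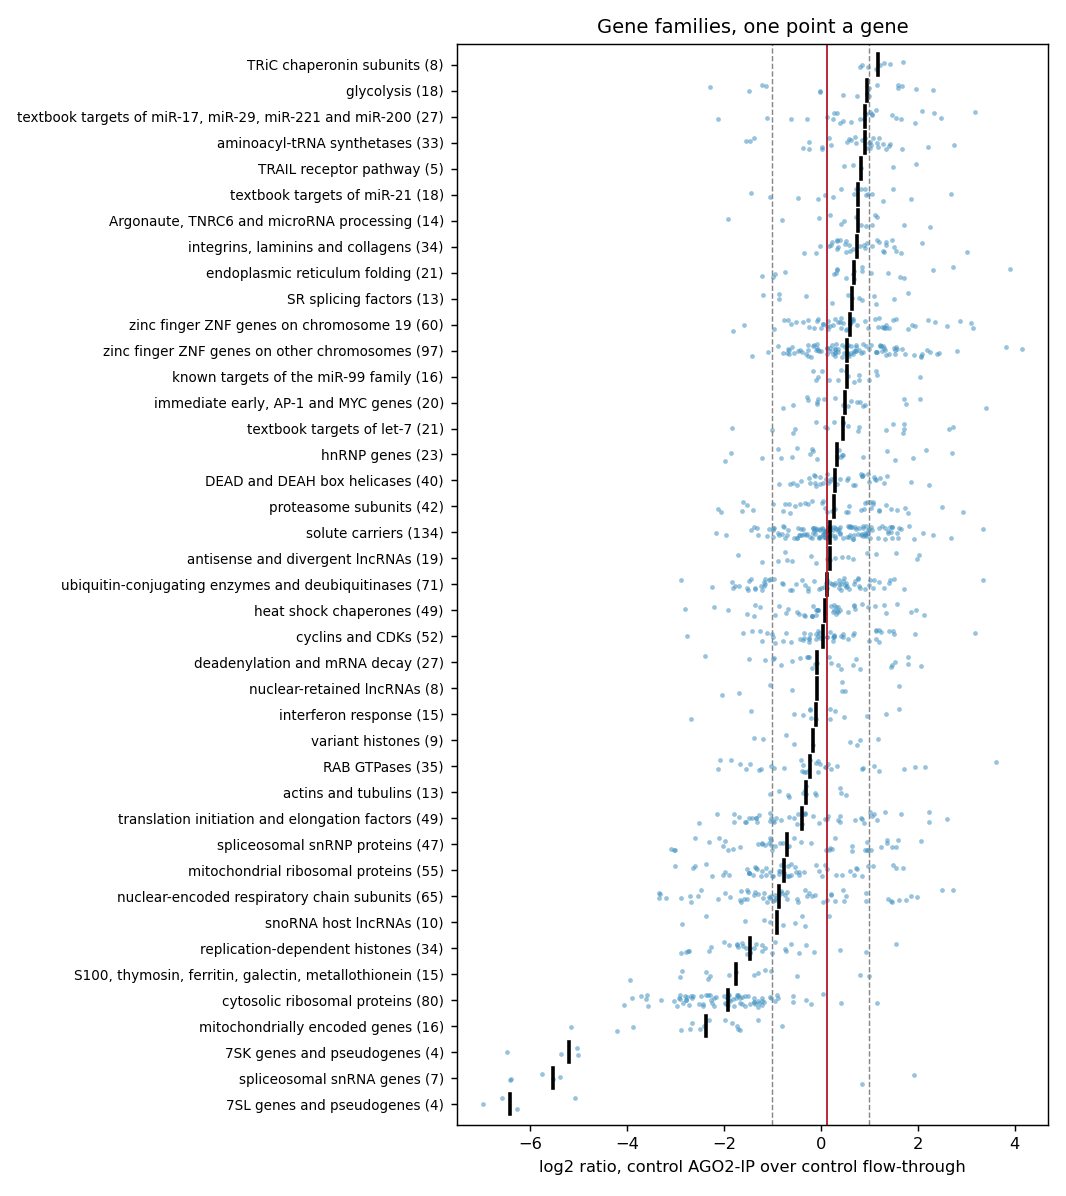
Log2 ratio of the control AGO2-IP over the control flow-through for the genes of each family (points, number of genes past the filter in brackets) with the family median (black bar), the median of all 8245 genes (red line) and a 2-fold difference either way (dashed). Ribosomal proteins, histones and small RNAs lie left and the TRiC chaperonin, aminoacyl-tRNA synthetases and glycolysis right; with the mitochondrial genes in the library size every point moves right by 0.77, which takes the medians of mitochondrial ribosomal proteins, snRNP proteins, translation factors and several other families from below to above 0.

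On the AGO2-IP side, the most uniform family was TRiC, the ring-shaped chaperonin that folds actin and tubulin. All 8 subunits were above 0.8 and 5 were at or above 1, with a median of 1.18. CCT7 stood at 580 and 179 CPM (1.69), TCP1 at 421 and 156 (1.43), and CCT3, the lowest, at 0.82. Its substrates did not stand out: ACTB was at -0.32, or 0.46 with the mitochondrial genes in the library size, and ACTG1 was at 0.52. The aminoacyl-tRNA synthetases, which charge tRNAs, had 14 of 33 at or above 1 and 3 at or below -1, with a median of 0.91. HARS1 was the highest, at 261 and 38.7 CPM (2.75). The mitochondrial enzymes (11 genes) had a median of 0.99, and 17 cytosolic enzymes, not counting FARSA, FARSB and EPRS1, a median of 0.95. The 3 at or below -1 were the accessory proteins AIMP1 (-1.55) and AIMP2 (-1.38) and FARSB, a subunit of the cytosolic phenylalanyl-tRNA synthetase (-1.45).

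Glycolysis was divided. Of 18 genes, 6 were at or above 1 and 4 at or below -1, around a median of 0.95. LDHA, the lactate dehydrogenase subunit, stood at 3995 and 1254 CPM (1.67), and the glucose transporter SLC2A3 was at 2.32. GAPDH lay far on the other side, at 232 and 1125 CPM (-2.28), and ENO1 was at -1.21. The proteasome had overlapping modules, with medians of 0.27 for the 14 core subunits, 0.80 for the 6 ATPases and 0.90 for the 13 other regulatory subunits. PSMD2 stood at 2714 and 357 CPM (2.93), while the assembly factor PSMG2 was at -2.12.

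The extracellular matrix and adhesion genes of this mesenchymal line had no member at or below -1. Of 34 integrins, laminins and collagens, 13 were at or above 1, with a median of 0.74. The collagens had 8 of 15 there and a median of 1.06. COL1A2, a fibrillar collagen chain, stood at 66.6 and 8.19 CPM (3.02), and the basement membrane chains COL4A2 and COL4A1 were at 2.09 and 1.66. ITGB1, the beta subunit shared by many integrins, was at 1.16. Among the genes of protein folding in the endoplasmic reticulum, 7 of 21 were at or above 1, and CALR was the lowest at -1.21.

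Zinc finger genes, mostly transcriptional repressors with long arrays of near-identical fingers, were rarely on the flow-through side. Of 60 on chromosome 19, 20 were at or above 1 and 2 at or below -1 (median 0.60), and of 97 elsewhere 31 and 2 (median 0.55). ZNF708 was the highest on chromosome 19 (3.14) and ZNF358 the lowest (-1.80). The DEAD and DEAH box helicases (40 genes, median 0.30) and the immediate early, AP-1 and MYC genes (20 genes, median 0.51) also had 0 members at or below -1. DUSP5, an inducible phosphatase of ERK, stood at 702 and 66.2 CPM (3.41). The hnRNP genes had a median of 0.33, from HNRNPM at 2.71 to PCBP2 at -1.98. HNRNPA1 was at 1.90, but its many copies make that value uncertain. The SR splicing factors had a median of 0.65, with SRSF9 at 1.80 and SRSF11 at -1.20.

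Transcripts of the microRNA machinery leaned to the AGO2-IP. All 14 genes of the list passed the filter, with 5 at or above 1, 1 at or below -1 and a median of 0.77. TNRC6A stood at 210 and 43.9 CPM (2.26), and its paralogs TNRC6C and TNRC6B were at 1.11 and 0.48. DICER1 stood at 412 and 126 CPM (1.71). The Argonaute genes were spread: AGO4 was at 1.16, AGO2 at 0.72 with 355 and 216 CPM, AGO1 at -0.04, or 0.73 with the mitochondrial genes in the library size, and AGO3 at -0.79. PRKRA, a DICER1 partner, was the lowest at -1.91.

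The 3 lists of textbook microRNA targets had medians of 0.47 to 0.92, beside 0.13 for all genes. Of 21 let-7 targets past the filter, 7 were at or above 1 and 1 at or below -1. HMGA2, the chromatin protein that let-7 silences in differentiated cells, stood at 370 and 56.0 CPM (2.73). MYC, the growth-promoting transcription factor, was at 1.73. HMGA1, a second architectural protein, was the exception at 790 and 2810 CPM (-1.83). Of 18 miR-21 targets, 5 were at or above 1 and 2 at or below -1 (median 0.77), with the tumour suppressor PDCD4 at 0.73. Of 27 targets of miR-17, miR-29, miR-221 and miR-200, 12 were at or above 1 and 2 at or below -1 (median 0.92). CDKN1B, the cell cycle inhibitor p27, stood at 205 and 22.5 CPM (3.19). The pro-apoptotic genes BCL2L11, at 140 and 25.02 CPM (2.49), and BBC3, at 83.6 and 16.6 (2.33), and the anti-apoptotic MCL1 (1.47) lay on the same side. ZEB1, a target of the epithelial miR-200 family, was the lowest at -2.11.

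The targets of the miR-99 family and the TRAIL receptor genes show where these genes stood without the mimic. Of 16 known miR-99 family targets past the filter, 3 were at or above 1 and 0 at or below -1, with a median of 0.54. The share at or above 1 was thus near the 19.3% of all genes. TRIB2 was the highest at 2.05, MTOR was at 0.36, and SMARCA5 was at -0.16, or 0.61 with the mitochondrial genes in the library size. In the TRAIL receptor pathway, 5 of 7 genes passed. TNFRSF10A, which encodes the death receptor DR4, stood at 59.3 and 15.2 CPM (1.96), and TNFRSF10B, which encodes DR5, at 181 and 131 (0.47).

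The microRNAs whose seed matches are described next are shown with bases 2 to 8, the seed, in capitals. The mature sequences are those of RefSeq, and miR-221-3p and miR-222-3p share 1 seed.
let-7a-5p: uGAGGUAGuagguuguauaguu
miR-29a-3p: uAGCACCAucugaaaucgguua
miR-16-5p: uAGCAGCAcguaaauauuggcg
miR-27a-3p: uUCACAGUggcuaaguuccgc
miR-92a-3p: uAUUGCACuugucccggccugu
miR-21-5p: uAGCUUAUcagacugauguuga
miR-221-3p: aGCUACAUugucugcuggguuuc
miR-222-3p: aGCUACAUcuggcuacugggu

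Sites for the seeds of let-7, miR-21-5p, miR-29a-3p and miR-221-3p were found in the 3′ UTRs of named targets. Each is shown as 24 bases of the transcript, 5′ to 3′, with the 8-base match (complement of bases 2 to 8 followed by A) in capitals. The seed can pair with the capitals before the last A, and that A lies opposite the first base of the microRNA. All lie in 3′ UTR exons of GRCh38 and none is evidence of binding.
HMGA2, let-7, chr12:65963297-65963320, plus strand: cgccaacgttcgatttCTACCTCA
CDKN1B, miR-221-3p, chr12:12721212-12721235, plus strand: cctctaaaagcgttggATGTAGCA
BCL2L11, miR-221-3p, chr2:111168267-111168290, plus strand: ttctaggacccagcgtATGTAGCA
BBC3, miR-221-3p, chr19:47221699-47221722, minus strand: ggactttctctgcaccATGTAGCA
COL4A1, miR-29, chr13:110150326-110150349, minus strand: agctaatgtcacaacaTGGTGCTA
COL1A1, miR-29, chr17:50184572-50184595, minus strand: gtggggagggaatcacTGGTGCTA
MCL1, miR-29, chr1:150576039-150576062, minus strand: caggctagtctaaccaTGGTGCTA
PDCD4, miR-21, chr10:110898314-110898337, plus strand: taagtggaatattctaATAAGCTA

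The 3 genes with a miR-221-3p site shown here had ratios of 2.33 to 3.19 and the 3 with a miR-29 site 1.47 to 1.66, but these genes were picked for display from among the higher members of their lists, so the values are a description. Within the target lists, genes with a 7-base match had higher medians than genes without for let-7 (12 of 21 with a match, 0.78 against 0.28), miR-21 (14 of 18, 0.87 against 0.17) and miR-29 (16 of 27, 0.97 against 0.63). For miR-221 the order was the other way (8 of 27, 0.78 against 0.93).

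Over all nuclear mRNAs, an 8-base match went with a slightly higher ratio for some microRNAs and not for others. The median of mRNAs with a match was compared with that of mRNAs without one in the same range of 3′ UTR length. The difference was 0.43 for miR-29a-3p (311 mRNAs), 0.35 for miR-16-5p (440), 0.31 for miR-27a-3p (583), 0.26 for miR-92a-3p (318) and 0.16 for let-7 (360). For miR-29a-3p it was 0.20 when only genes with at least 1000 summed counts were used. The difference was 0.11 for miR-23a-3p, 0.08 for miR-30a-5p, 0.04 for miR-221-3p, 0.00 for miR-24-3p and -0.09 for miR-21-5p. Over the 1666 human seeds with at least 100 matching mRNAs, the same difference had a median of 0.01 and quartiles of -0.11 and 0.13. In the mimic pairs it was 0.12 and 0.12 for miR-29a-3p, 0.14 and -0.03 for miR-16-5p, and 0.27 and 0.24 for miR-27a-3p. For miR-92a-3p it was 0.24 and 0.83 there, and for let-7 0.15 and 0.39. For miR-23a-3p it was 0.29 and 0.97, for miR-30a-5p 0.17 and 0.81, and for miR-221-3p 0.17 and 0.85. It was 0.13 and 0.68 for miR-21-5p, and -0.28 and -1.03 for miR-24-3p. The order of the microRNAs in the control was thus not kept in the mimic pairs. The quartiles over all seeds were -0.17 and 0.06 in the first mimic pair and -0.67 and 0.57 in the second. With strata of length and GC content the control values were 0.30 for miR-29a-3p, 0.28 for miR-16-5p, 0.24 for miR-27a-3p and 0.32 for miR-92a-3p. They were 0.23 for let-7, 0.21 for miR-23a-3p, 0.16 for miR-30a-5p, 0.08 for miR-221-3p, 0.05 for miR-21-5p and -0.10 for miR-24-3p. The quartiles over all seeds in these strata were -0.09 and 0.06. Seeds overlap in letters and mRNAs carry many matches, so these are descriptions of single pairs of libraries.

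**Figure D4:**
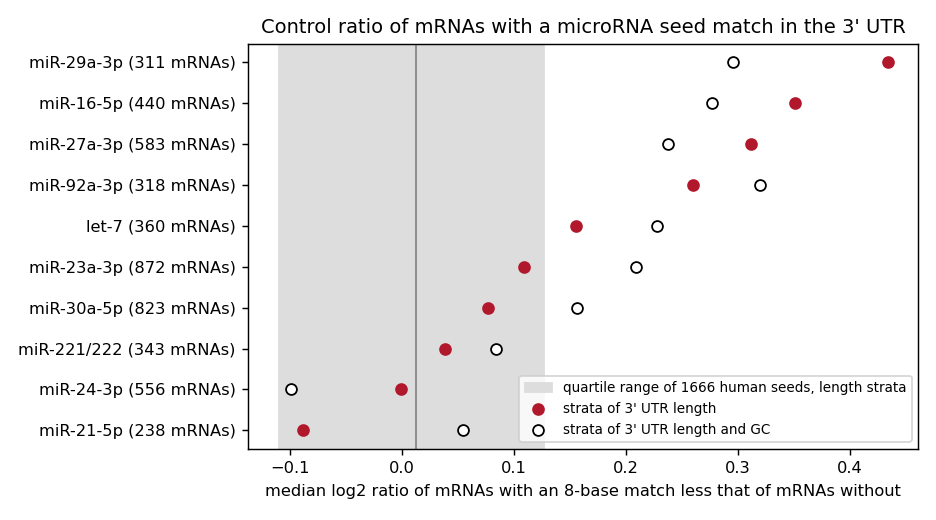
Difference in median control log2 ratio between mRNAs with and without an 8-base seed match in the 3′ UTR, per microRNA, within strata of 3′ UTR length (filled) and of length and GC content (open). The grey band spans the quartiles over 1666 human seeds in the length strata; miR-29a-3p (0.43), miR-16-5p (0.35) and miR-27a-3p (0.31) lie to its right and miR-21-5p (-0.09) and miR-24-3p (0.00) within it.

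The coding length of an mRNA went with the ratio over most of its range. The 8095 nuclear mRNAs were put into 5 bins of equal size, and from the shortest to the longest bin the medians were -0.57, 0.03, 0.21, 0.33 and 0.41. In the shortest bin 37.6% were at or below -1, and in the longest 5.50%. Spearman's rho over these genes, which share both libraries, was 0.28 for coding length, 0.20 for transcript length, 0.13 for GC content and 0.08 for 3′ UTR length. The medians of 5 bins by GC content were -0.21, 0.12, 0.34, 0.30 and 0.14. In a grid of 4 bins by coding length and 4 by GC content, the bin of shortest coding sequences had the lowest median at every GC content, from -0.65 to -0.29. Within the same short bin, the median moved from -0.81 with the shortest 3′ UTRs to -0.15 with the longest.

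**Figure D5:**
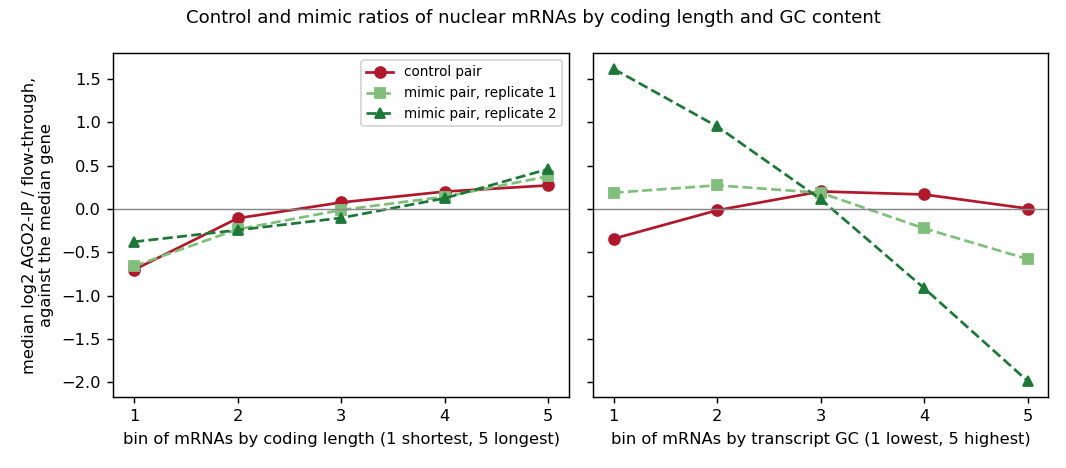
Median log2 ratio of AGO2-IP over flow-through, set against the median gene of each pair, in 5 bins of coding length (left) and of transcript GC content (right), for the control pair (circles) and the mimic pairs of replicate 1 (squares) and 2 (triangles). The 3 pairs run alike by coding length, from the shortest bin below 0 to the longest above it, and apart by GC content, where the control is lowest in bin 1 and both mimic pairs in bin 5.

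The mimic pairs, made from cells of the same line transfected with the mimic, give the same fractions for comparison. On values set against the median gene of each pair, ribosomal proteins were at -2.04 in the control and at -2.49 and -1.14 in the mimic pairs, and TRiC at 1.05, 1.59 and 1.33. The hnRNP genes were at 0.20 in the control and at 2.17 and 2.87 in the mimic pairs. Some other families lay on the other side of the median gene in the second mimic pair. Glycolysis was at 0.82, 0.46 and -1.01, and integrins, laminins and collagens at 0.61, 0.23 and -0.81. The TRAIL receptor pathway was at 0.70, 0.18 and -0.91, and the mitochondrially encoded genes were at -2.49, -4.10 and 1.35. On this scale 1314 genes (15.9%) were at least 2-fold towards the AGO2-IP in the control and 936 (11.4%) in both mimic pairs. The 491 genes in both lists were 37.4% of the first and 52.5% of the second. Towards the flow-through the counts were 1524 (18.5%) and 1198 (14.5%), with 655 in both, 43.0% and 54.7%. The share of 7SL genes in the mimic libraries was 11.6% and 26.1% in the flow-through and 0.104% and 0.105% in the AGO2-IP, while mitochondrial genes were at most 0.125% of any mimic library. The control and mimic libraries differ in transfection and in composition, and which of these sets a difference between them cannot be told apart.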

How the data were processed

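AGO2-RIP-seq libraries of MDA-MB-231 cells were grouped by their titles. The authors checked paired-end reads with FastQC 0.11.9, trimmed them with cutadapt 3.5 and aligned them to GRCh38 with STAR 2.7.11b in 2-pass mode, and the deposited values are STAR's counts of read pairs per gene, whole numbers without normalization (which Ensembl release was used is not given in the sources used here). The unstranded column was used. Rows that name no gene (92.3% of flow-through and 95.03% of AGO2-IP pairs) were left out, and pairs on several places or genes are not counted, which lowers genes with near-identical copies. GENCODE 44 named 60463 of 60708 identifiers, and 245 were left without a name. Seeds and sites used RefSeq mature microRNAs and GENCODE transcripts.

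The gene counts of the control libraries were 7772149 and 8076375, and a floor of 3 counts corresponds to 0.682 and 0.385 CPM. For genes with at least 200 counts summed over both, the log2 ratio of CPM was computed without a prior count, on library sizes without mitochondrially encoded genes, with a 95% Clopper-Pearson interval for counting error only (Python 3.11.15, numpy 2.4.6, pandas 2.3.3, scipy 1.17.1, statsmodels 0.14.6). Alternative size factors came from edgeR 4.0.16 and DESeq2 1.42.0 in R 4.3.3. The scripts were tested on simulated data. No test was possible with 1 library a side, and families are described by counts past 2-fold and medians. The members, families, markers and target lists were chosen with earlier results of these data known. Named were the 12 highest and 12 lowest protein-coding genes with 200 counts in the higher library, the 3 highest and 3 lowest of each other RNA class with at least 5 genes, for each family of at least 4 genes the highest, the lowest and up to 3 well-known members, the AGO, TNRC6 and DICER1 genes, the mitochondrial rRNAs and mRNAs and the cell type markers. The genes shown with sites, and the ribosomal DNA class, were chosen after their values were seen. Mimic ratios pair the AGO2-IP and flow-through of the same biological replicate.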

Additional observations from a re-analysis of the deposited data

Results flagged for a closer look

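Of 117 families, named genes and feature contrasts set beside the mimic pairs, 8 lay on the opposite side of the median gene in the control and in all 4 combinations of a mimic AGO2-IP with a mimic flow-through. With 1 control library per fraction the difference was not tested in any of them, and the 4 combinations share 2 libraries of each fraction. In the deadenylation, heat shock, cyclin, ubiquitin and solute carrier families the control value was closer to 0 than 0.239. That is the typical counting error of a single gene, so the control had no clear side in these families. The deadenylation and mRNA decay genes, which shorten and degrade mRNA, had a median of -0.21 in the control and 0.38 to 1.44 in the mimic combinations. The RAB GTPases of vesicle traffic were at -0.36 and 0.02 to 0.90. The heat shock chaperones were at -0.0514 and 0.34 to 0.81, and the cyclins and CDKs at -0.0775 and 0.09 to 0.63. The ubiquitin-conjugating enzymes and deubiquitinases were at -0.00967 and 0.04 to 0.59. The solute carriers, membrane transporters, were at 0.0642 in the control and at -0.78 to -0.26 in the mimic combinations. TXNDC5, a disulfide isomerase of the endoplasmic reticulum, was at 3.77 in the control and at -2.27 to -0.54 with the mimic, on exons of which 61.1% are shared with other annotated genes. The difference between the highest and the lowest of 5 bins of mRNAs by GC content was 0.35 in the control and -3.61 to -0.77 in the mimic combinations.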

How the results depend on the processing

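Each of 41 families and 75 named genes was counted again under every alternative that kept it. Of these family medians 459 moved by at most 0.239, the typical counting error of a gene, and 90 moved further. With the mitochondrial genes in the library size all 41 moved further. For named genes 728 values stayed within their counting interval and 162 did not. None with a main log2 ratio of at least 1 in size was reversed, but for single genes many settings could not do so. Another library size moves all ratios by one amount, at most 0.77 here. The count filters leave the ratio of a gene as it was, so the 75, 44 and 31 named genes they kept stayed by construction. With the mitochondrial genes in the library size there were 3825 genes at or above 1 and 420 at or below -1, the median was 0.90 and 18 families, in place of 1, had a median of at least 1. The TMM factors of edgeR gave 1330 and 1507 genes, which takes the share on the AGO2-IP side among genes past 2-fold from 55.3 to 46.9%, and DESeq2's factors gave 1314 and 1524. The other filters changed how many genes entered, which was 8245 in the main setting. A summed count of at least 50 let in 11149 genes, with 1889 at or above 1 and 2014 at or below -1. A summed count of at least 1000 left 3115 genes, with 798 and 413 past 2-fold and a median of 0.38. It gave 3 families with a median of at least 1 and 4 of at most -1. The miR-29a-3p seed difference of 0.43 was 0.20 under that filter. At least 200 counts in each library left 4486 genes, with 669 and 676 past 2-fold, and 4 families at or below -1. The column of the second strand gave 2 families at or above 1. Removing the trend with GC content was done for nuclear mRNAs only, so the families of other RNAs dropped out and 3 were at or below -1. All 34 family medians that remained moved by at most 0.239. A threshold of 4-fold gave 273 and 281 genes. Protein-coding shares of the flow-through were 52.8 and 50.4% on the stranded columns and 89.2% without mitochondrial genes, and those of the AGO2-IP 91.8, 91.4 and 98.0%. Mitochondrial rRNA was 37.1 and 40.3% of the flow-through and 2.25 and 2.63% of the AGO2-IP on the stranded columns. The causes were not tested, beyond fewer or more genes entering under another filter. Leaving out the genes of the ribosomal DNA repeats and the strata of length and GC content were chosen after seeing the data. No paired analysis was possible because the control has 1 library per fraction and the results come from no test. Ratios of genes near 200 summed counts have intervals wider than the median of 0.48, and no replicate of the control fractions was analysed here.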
